A study of Arabidopsis thaliana with 20 samples.

Results

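RNA carrying an NAD cap was set against total RNA in unopened flower buds of Arabidopsis thaliana Col-0, the wild-type laboratory line, to see which transcripts are over-represented after capture. The libraries were chosen by their labels alone: the 2 NAD capture and the 2 total RNA libraries of Col-0, which makes 4 of the 20 libraries of the study. The other 16 libraries, among them those of the dxo1 mutant, were not used here. Both groups came from wild-type plants of about 4 weeks, grown with 16 h of light and 8 h of darkness a day, and were read as single-end reads of 50 nt. No transgene, treatment or selection of cells is named for either group. Nothing in the labels ties the 2 libraries of a group to different plants. The p-values below therefore measure the spread between libraries, which may be technical. No mock capture was analysed here, so RNA that binds without an NAD cap cannot be told apart from NAD-capped RNA.

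Most messenger RNAs begin with a methylated guanosine cap, and the metabolite NAD can take its place as a non-canonical cap at the 5′ end. Enzymes of the DXO family, which in Arabidopsis is represented by DXO1, remove NAD caps. In NAD capture the cap is usually tagged by an enzyme and a chemical handle, and the tagged RNA is pulled down, reverse transcribed and sequenced. Small nucleolar RNAs (snoRNAs) guide the modification of ribosomal RNA in the nucleolus, spliceosomal RNAs (snRNAs) are the RNA core of the splicing machine, and transfer RNAs (tRNAs) carry amino acids to the ribosome.

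Counts assigned to genes came to 1144896 and 1807082 in capture and 5407850 and 2576448 in total RNA. A further 96.1 and 91.8% of reads in capture, and 90.8 and 90.9% in total RNA, were assigned to no gene. Most of those matched several places, so genes with near-identical copies were counted incompletely. Levels are given as CPM, counts scaled to a common library size with TMM factors. A single count equals 1.11 and 0.401 CPM in capture replicates 1 and 2, and 0.199 and 0.414 CPM in total RNA replicates 1 and 2. The capture libraries had a Pearson r of 0.804 in log2(CPM + 1) across genes, and the total RNA libraries one of 0.977 (genes are not independent replicates). With 1 CPM added, 632 of 15164 tested genes were more than 4-fold apart between the capture libraries, against 0 between the total RNA libraries. Nuclear rRNA genes and the 2 mitochondrion-encoded loci with the most counts together took 39.7% of counts in capture replicate 1 and 14.5% in capture replicate 2, against 32.5 and 31.5% in total RNA.

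Markers of the labelled tissue were present in both groups. Floral organ identity genes, which specify sepals, petals, stamens and carpels, summed to 856 and 1283 CPM in capture and 888 and 975 CPM in total RNA, and 16 of 18 passed the count filter. The 5 root markers had no count in any library. Of the 8 seed storage genes, 5 had a count, and their sum was 56.5 and 1.61 CPM in capture against 0.199 and 0.414 CPM in total RNA. The part of seed transcripts in the results was not tested. DXO1 (AT4G17620), the wild-type gene in these plants, stood at 13.3 and 24.5 CPM in capture and 30.6 and 26.9 CPM in total RNA. Both capture values lay below both total RNA values, but with a log2 fold change of -0.53 ± 0.348 SE the gene did not pass (edgeR adjusted p = 0.343).

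Genes higher in NAD capture than in total RNA included snoRNA and tRNA genes, some organelle transcripts, cell wall proteins and photosystem subunits. Genes lower in capture included abundant spliceosomal RNAs and genes of the tapetum, the cell layer that lines the anther. The test was edgeR's quasi-likelihood test on the 4 libraries, with Benjamini-Hochberg adjustment over every gene in the fit, and a gene was called at an adjusted p of at most 0.05. Of 15164 genes tested, 977 were higher in capture (6.44%) and 431 lower (2.84%), 9.29% in all. In each of the 1408 both capture libraries lay on the same side of both total RNA libraries. The smallest called difference was 1.08 upward and -1.11 downward on the log2 scale, and the median of all tested genes was 0.04. Some tested genes stood under the filter's 4.56 CPM (before TMM scaling) in either total RNA library. They are said below to pass only through capture, and such a filter favours rises over falls. Counts are therefore also given for the 13319 genes that stood at or above it in both total RNA libraries. Of these, 570 were higher (4.28%) and 431 lower (3.24%).

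The size of these sets depended on the spread between libraries and on the scaling. When total RNA replicate 1 was left out, 1 gene was higher and 0 were lower (1630 genes had an unadjusted p under 0.05). When total RNA replicate 2 was left out, 82 were higher and 2 lower. When capture replicate 1 or 2 was left out, and the spread came from the total RNA libraries, 4375 or 2798 were higher and 4301 or 2560 lower. Scaled by library totals alone, 69 were higher and 0 lower (2992 at an unadjusted p under 0.05), and the median of all genes moved to 0.29. Apart from 1 tRNA gene no class or list described below had a call without total RNA replicate 1. With library totals alone 27 snoRNA, 6 tRNA, 9 plastid-encoded and 3 arabinogalactan genes were higher. Photosystem subunits, histones, clock, tapetum, small RNA pathway, actin and tubulin, ribosomal protein, MYB and WRKY genes then had 0 calls. None of the 1408 genes changed direction in any setting tried in which it was tested. The plot of fold change against level shows the called genes on both sides of a broad band of genes that did not pass.

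**Figure D1:**
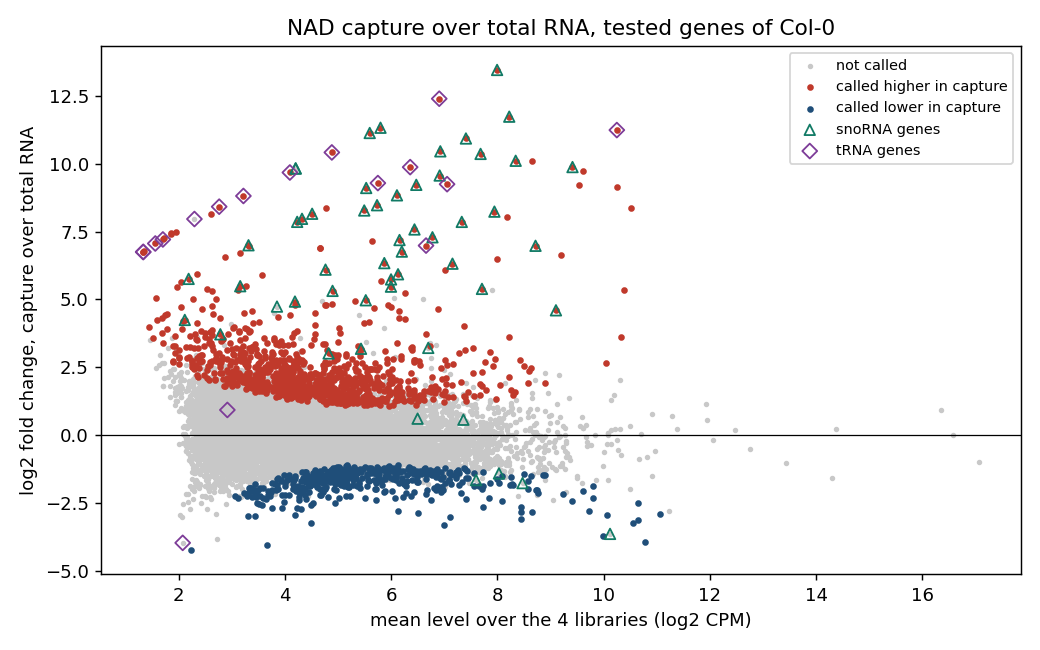
Log2 fold change of capture over total RNA against the mean level in log2 CPM, 1 point for each of the 15164 genes tested. Red points were called higher and blue points lower in capture, grey points did not pass, and open triangles and diamonds ring the snoRNA and tRNA genes, most of which lie above the band and passed the count filter only through capture. The fold changes plotted are fitted values, which for genes with few or no counts in total RNA depend on a prior count and are no bound.

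Sorted by gene class, the share of counts that differed by the largest factor was that of tRNA. Transfer RNA genes took 0.73 and 0.102% of gene counts in capture, against 0.00198 and 0.0021% in total RNA, 359 and 50.3 times the mean share of total RNA. Spliceosomal RNA went the other way, with 0.127 and 0.0974% in capture against 0.511 and 0.53% in total RNA. Small nucleolar RNA took 1.61 and 0.457% in capture against 0.268 and 0.406% in total RNA. Nuclear rRNA genes took 14.2 and 6.83% in capture against 5.89 and 5.66% in total RNA. As unscaled shares, the capture libraries did not overlap the total RNA libraries in these 4 classes. In TMM-scaled CPM the groups overlapped for snoRNA, with 20492 and 3311 CPM in capture against 2881 and 4329 CPM in total RNA, and for rRNA, with 180294 and 49551 CPM in capture against 63259 and 60287 CPM in total RNA.

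The unscaled shares of the larger classes differed widely between the capture libraries. Protein-coding genes held 44.0 and 76.9% of counts in capture against 54.4 and 54.9% in total RNA. Plastid-encoded genes held 11.5 and 5.88% in capture against 9.6 and 9.48% in total RNA. Mitochondrion-encoded genes held 26.4 and 8.67% in capture against 27.6 and 26.8% in total RNA. In the first 2 of these classes the capture shares lay on either side of total RNA, but in TMM-scaled CPM protein-coding genes summed to 557954 and 557464 in capture against 584137 and 585492 in total RNA, with both capture libraries lower. In the mitochondrial share, capture replicate 1 lay just below total RNA and replicate 2 far below it. The 95% Wilson interval of the smallest share, tRNA in total RNA replicate 1, ran from 0.00164 to 0.00239%. Intervals cover counting error only.

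**Figure D2:**
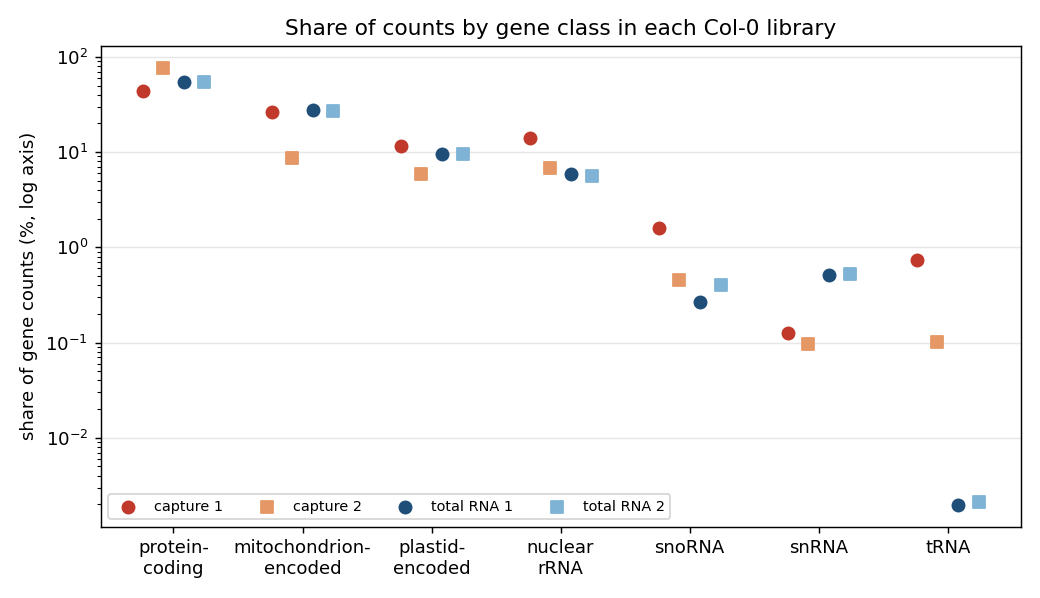
Share of gene counts in percent (log axis) by gene class, 1 point for each library, with capture replicates 1 and 2 in red and orange left of total RNA replicates 1 and 2 in dark and light blue. The tRNA share lay at 0.73 and 0.102% in capture and near 0.002% in total RNA, while the snRNA share was lower in capture than in total RNA.

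Of 71 small nucleolar RNA genes in the count tables, 53 passed the filter, and 43 of these were called higher and 0 lower (1 lower with DESeq2). Of the 43, 38 passed the filter only through capture, which favours a rise. Among the 12 that met the filter in total RNA, 5 were higher (3 when adjusted over such genes alone), against 4.28% of all such genes. A further 4 of the 12 lay below total RNA in both capture libraries without passing. Of protein-coding genes that met the filter, 4555 of 13107 lay below it in both, so those 4 do not set snoRNA genes apart. U3B, a copy of the U3 RNA that takes part in the first cleavages of the ribosomal RNA precursor, stood at 1278 and 410.1 CPM in capture against 7.35 and 5.79 CPM in total RNA (a log2 difference of 6.98 ± 0.729 SE, adjusted p = 0.028). SNOR30 stood at 523 and 136 CPM in capture against 1.19 and 1.65 CPM in total RNA (7.86 ± 0.87 SE). SNOR108 had 59.8 and 46.2 CPM in capture and 6.35 and 6.62 CPM in total RNA (3.01 ± 0.305 SE). In each of these genes both capture libraries stood far above both total RNA libraries, and capture replicate 1 stood highest.

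Several snoRNA genes had next to no count in total RNA. AT3G01316 had 803 and 377 counts in capture and 0 in both total RNA libraries. Pooled over both capture libraries it was at least 864-fold higher, taking 3 counts over both total RNA libraries as the floor. Bounds and ratios of this kind, here and below, use pooled counts. They do not cover the spread between the capture libraries and need not hold in each. AT4G26365 and AT1G75163, also without a count in total RNA, were at least 188-fold and 163-fold higher. AT2G35384 had 1064 and 103 counts in capture and 1 and 0 in total RNA, a ratio of 2563 with a counting interval from 459 to 101318. Capture replicate 1 exceeded replicate 2 in 43 of the 43 snoRNA genes called, and 31 of them were more than 4-fold apart between the capture libraries with 0.5 CPM added. Over all 977 genes called higher, replicate 1 was the larger in 450.

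A few snoRNA genes made up most of the snoRNA counts in total RNA, and these were not higher in capture. AT4G39364, AT4G39363, SNOR105 and SNOR77 held 90.4 and 90.8% of the snoRNA counts in total RNA, against 4.52 and 6.17% in capture. AT4G39364 stood at 294 and 39.3 CPM in capture against 1687 and 2420.3 CPM in total RNA, with both capture libraries far below, but at -3.64 ± 0.943 SE on the log2 scale it did not pass (adjusted p = 0.0607). Its neighbour AT4G39366 stood at 368 and 24.9 CPM in capture against 8.14 and 34.7 CPM in total RNA, where capture replicate 2 fell between the total RNA values (adjusted p = 0.143). Outside those 4 loci, snoRNA genes took 1.54 and 0.428% of gene counts in capture against 0.0259 and 0.0375% in total RNA.

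Transfer RNA genes were seen in capture and hardly in total RNA. The tables hold 623 of them, 200 had a count in some library, and 169 of these had none in total RNA. Of 17 that passed the filter, 14 were higher and 0 lower, and just 1 of the 17 met the filter in total RNA, so the count of calls carries little information of its own. AT3G05525 stood at 4765 and 124 CPM in capture and at 0.794 and 1.24 CPM in total RNA (11.24 ± 2.1 SE, adjusted p = 0.0351), and it overlaps the protein-coding gene CPA. AT5G64735 was even between the capture libraries, with 169.6 and 166 CPM against 0.199 and 0 CPM in total RNA, a ratio of 1245 with a counting interval from 223 to 49271. AT5G58495, with 437 and 50 counts in capture and none in total RNA, exceeded it by at least 357-fold in pooled counts. Its capture values were 484 and 20.1 CPM, so replicate 1 carried most of that bound. In every one of the 14 called tRNA genes capture replicate 1 exceeded replicate 2. Copies of a tRNA gene can be identical, so the counts of single genes are uncertain.

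Spliceosomal RNA genes split by copy. U2.7, U2.6, U2.5 and U1.5 were lower in capture, and U2.3, U2.4 and U6-29 higher, out of 11 tested. The 4 lower ones were among 8 that met the filter in total RNA, against 3.24% lower over all such genes. The 3 higher ones passed only through capture, against 6.44% higher over all genes tested. The U2 RNA pairs with the branch point of the intron and U1 with its start. U2.7 stood at 459 and 124 CPM in capture against 2777 and 2630.0 CPM in total RNA (-3.22 ± 0.705 SE, adjusted p = 0.0438). Its call was lost when adjusted over the genes that met the filter in total RNA alone, and 3 spliceosomal RNA genes remained lower. U2.3, at 154 and 59.4 CPM in capture, had 0.397 and 1.24 CPM in total RNA (7.15 ± 0.747 SE, adjusted p = 0.028). U2.4 had 72 and 80 counts in capture against 1 and 2 in total RNA, a ratio of 111 with a counting interval from 37.4 to 546. U2 copies are near identical and U2.3, U2.4 and U2.7 overlap protein-coding genes, so these values are uncertain copy by copy.

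The plot of both capture libraries shows how far the classes agreed between them. The protein-coding genes called higher had a median log2 ratio to total RNA of 1.79 in capture replicate 1 and 1.97 in replicate 2, and those called lower -1.62 in both. The called snoRNA genes stood at 7.44 in replicate 1 and 4.72 in replicate 2, and the called tRNA genes at 6.99 and 5.26. These ratios carry an added 0.5 CPM in both terms.

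**Figure D3:**
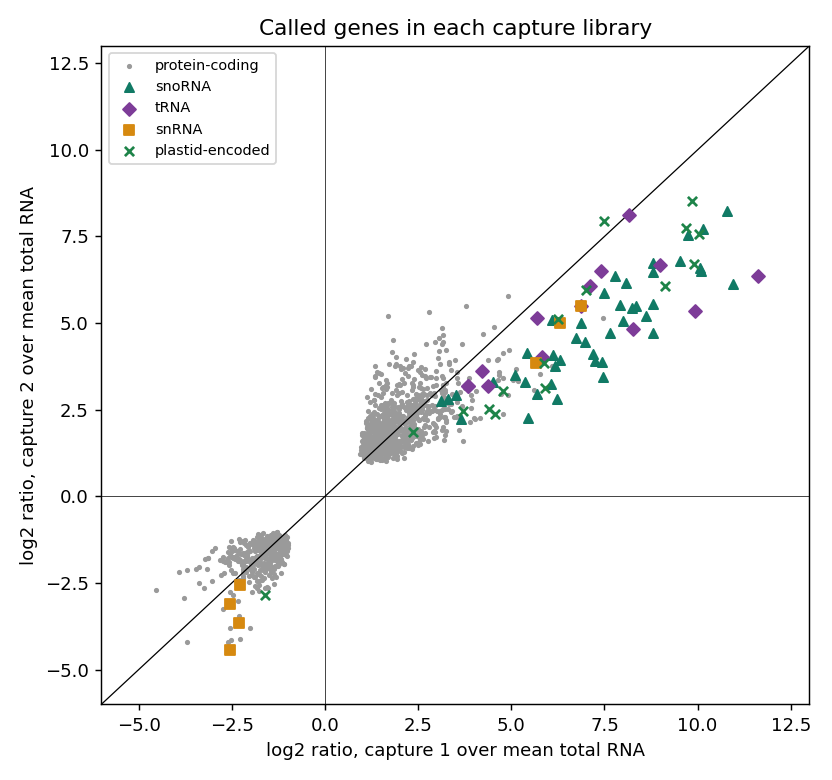
Log2 ratio to the mean of total RNA, with 0.5 CPM added, in capture replicate 1 (x axis) and capture replicate 2 (y axis), 1 point for each called gene of 5 classes, with the line of equal ratios. Protein-coding genes scatter on both sides of the line, while the 43 snoRNA and 14 tRNA genes called higher lie below it, with replicate 1 the larger.

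Organelle transcripts carry only identifiers in the tables used, so no name or role is given. Of 94 plastid-encoded genes tested, 15 were higher and 1 lower, against 6.44 and 2.84% of all genes tested. Among the 82 that met the filter in total RNA 4 were higher and 1 lower. Of all genes that met it, 4.28% were higher and 3.24% lower, so the 4 rises are near that share. ATCG00060 stood at 492 and 673 CPM in capture against 1.99 and 2.48 CPM in total RNA (8.03 ± 0.46 SE, adjusted p = 0.0102). ATCG00370 stood at 2268 and 889 CPM in capture against 1.39 and 2.48 CPM in total RNA (9.72 ± 0.807 SE). ATCG00010 stood at 1575 and 769 CPM in capture against 12.1 and 11.6 CPM in total RNA (6.62 ± 0.563 SE). In all 3 both capture libraries lay far above both total RNA libraries. ATCG00810, at 229 and 97.1 CPM in capture against 612 and 798 CPM in total RNA, was the lower one (-2.12 ± 0.494 SE, adjusted p = 0.0496). The call of ATCG00810 was lost with DESeq2 size factors, without ribosomal RNA genes, and adjusted over the genes that met the filter in total RNA alone. Capture replicate 1 exceeded replicate 2 in 93 of the 94 genes, and the median log2 fold change of the class was -0.93 without capture replicate 1 and 1.15 without replicate 2, against 0.45 with both.

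Mitochondrion-encoded genes gave 7 higher and 3 lower of 36 tested, and 3 higher and 3 lower of the 30 that met the filter in total RNA. Of all genes that met it, 4.28% were higher and 3.24% lower. ATMG00110 stood at 179.5 and 201 CPM in capture against 15.5 and 13.2 CPM in total RNA (3.72 ± 0.3 SE, adjusted p = 0.028). ATMG01380 stood at 3161 and 1588 CPM in capture against 154 and 232 CPM in total RNA (3.62 ± 0.553 SE). ATMG00070, at 543 and 409 CPM in capture against 2941 and 2505 CPM in total RNA, was lower (-2.52 ± 0.446 SE), as was ATMG01320, at 1.11 and 1.2 CPM against 22.4 and 17.4 CPM (-4.04 ± 0.505 SE). In none of these 4 genes did capture overlap total RNA, and ATMG01320 rests on 1 and 3 counts in capture.

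Among microRNA genes, whose transcripts are the precursors of microRNAs, 3 of 6 tested were higher and 0 lower. Over all genes tested these shares were 6.44 and 2.84%. Just 1 of the 6 met the filter in total RNA, and all 3 called genes passed it only through capture, which favours a rise. MIR398c stood at 35.5 and 8.83 CPM in capture against 0.993 and 1.65 CPM in total RNA (3.96 ± 0.85 SE, adjusted p = 0.0422). MIR408 had 24 and 11 counts in capture against 1 and 1 in total RNA, a ratio of 38.4 with a counting interval from 9.87 to 330.

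Both miR398 and miR408 accumulate when copper is scarce and act on transcripts of copper proteins. FSD1, the iron superoxide dismutase that stands in for the copper enzymes in that state, had the largest fold change among the protein-coding genes called higher above the median level. It stood at 105 and 20.9 CPM in capture against 0.199 and 0 CPM in total RNA, or 147 counts against 1, a ratio of 323 with a counting interval from 57.0 to 12837 (adjusted p = 0.0296). The copper enzymes CSD1 and CSD2 did not pass: CSD1 stood at 136 and 212 CPM in capture and 196 and 172 CPM in total RNA, and CSD2 at 73.1 and 104 CPM in capture and 109 and 127 CPM in total RNA. Of 8 superoxide dismutase and chaperone genes tested FSD1 alone was called, and it met the filter through capture. Whether copper supply has a part in these values was not tested, and both groups came from wild-type buds with no treatment named. MIR408 overlaps a protein-coding gene. The call of MIR408 was lost with DESeq2 size factors and that of MIR162a, the third microRNA gene called, with DESeq2.

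Protein-coding genes made up 871 of the 977 genes called higher and 419 of the 431 called lower, which is 5.87 and 2.83% of those tested. The 12 largest rises above the median level were led by FSD1, followed by RCI2A, a small membrane protein induced by cold, at 78.7 and 144 CPM in capture against 2.18 and 2.07 CPM in total RNA (5.69 ± 0.456 SE, adjusted p = 0.028). It overlaps APC11. AT3G23450 stood at 4335 and 870.4 CPM in capture against 70.9 and 56.3 CPM in total RNA (5.35 ± 0.887 SE). LEA18, a late embryogenesis abundant protein, stood at 7.76 and 92.7 CPM in capture against 1.59 and 2.48 CPM in total RNA (4.78 ± 1.08 SE), so its rise was carried by capture replicate 2, and the call was lost without it. The glycine-rich proteins GRP3S and GRP-3, secreted to the cell wall, were higher by 4.84 ± 0.442 SE and 4.71 ± 0.59 SE, with 75.4 and 48.2 CPM for GRP3S and 191 and 69.8 CPM for GRP-3 in capture, against 1.59 and 2.9 CPM and 4.17 and 5.79 CPM in total RNA. The others were AT1G29465, AGP1, AT5G62750, AT4G31980, AT4G29905 and AT3G26110, with log2 fold changes between 4.32 and 4.96.

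The 12 largest falls included several genes with a small RNA gene inside their span. AT1G27400 stood at 250.5 and 179 CPM in capture against 2508 and 4081 CPM in total RNA (-3.94 ± 0.534 SE, adjusted p = 0.0284). AT5G08180 stood at 504 and 163 CPM in capture against 2564 and 3207 CPM in total RNA (-3.12 ± 0.657 SE). AT-IE (AT1G31860), an enzyme of histidine synthesis, stood at 388 and 108 CPM in capture against 1902 and 1884 CPM in total RNA (-2.94 ± 0.666 SE). An annotated snoRNA gene overlaps each of these 3, and also AT4G30993, AT3G07860 and AT1G31835, which makes 6 of the 12 falls. Among the 12 largest rises, AT1G29465 and AT4G31980 overlap annotated snoRNA genes, 2 of 12.

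Over all 14828 protein-coding genes tested, 106 (0.715%) overlap a RefSeq snoRNA, snRNA or tRNA gene. The share was 0.804% among genes called higher (7 of 871) and 1.91% among genes called lower (8 of 419, 95% Wilson interval 0.971 to 3.72%). The median log2 fold change of those 106 genes was -0.13, against 0.03 for the other protein-coding genes. Of the 139 small RNA genes concerned, 49 have a row of their own in the count tables, so reads of the rest could be counted only to the gene around them. Whether the counts of AT1G27400 and the like come from the messenger RNA or from the small RNA within it was not tested. Without these 106 genes, 979 genes were higher and 430 lower.

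The other 6 large falls overlap no such gene. LHY, a clock gene, stood at 36.6 and 11.6 CPM in capture against 221 and 228 CPM in total RNA (-3.31 ± 0.546 SE, adjusted p = 0.0308). ATA27, a beta-glucosidase of the anther, stood at 399 and 605 CPM in capture against 3596 and 3939.6 CPM in total RNA (-2.91 ± 0.497 SE, adjusted p = 0.0317). EMB3141, a gene needed for embryo development, stood at 3.32 and 5.22 CPM in capture against 31.0 and 30.6 CPM in total RNA (-2.73 ± 0.366 SE). The capture libraries of all 3 lay at least several-fold under both total RNA libraries. AT1G64490, AT4G15030 and AT3G63052 were lower, at -3.22, -2.86 and -2.82 on the log2 scale, and AT4G15030 overlaps another protein-coding gene.

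**Figure D4:**
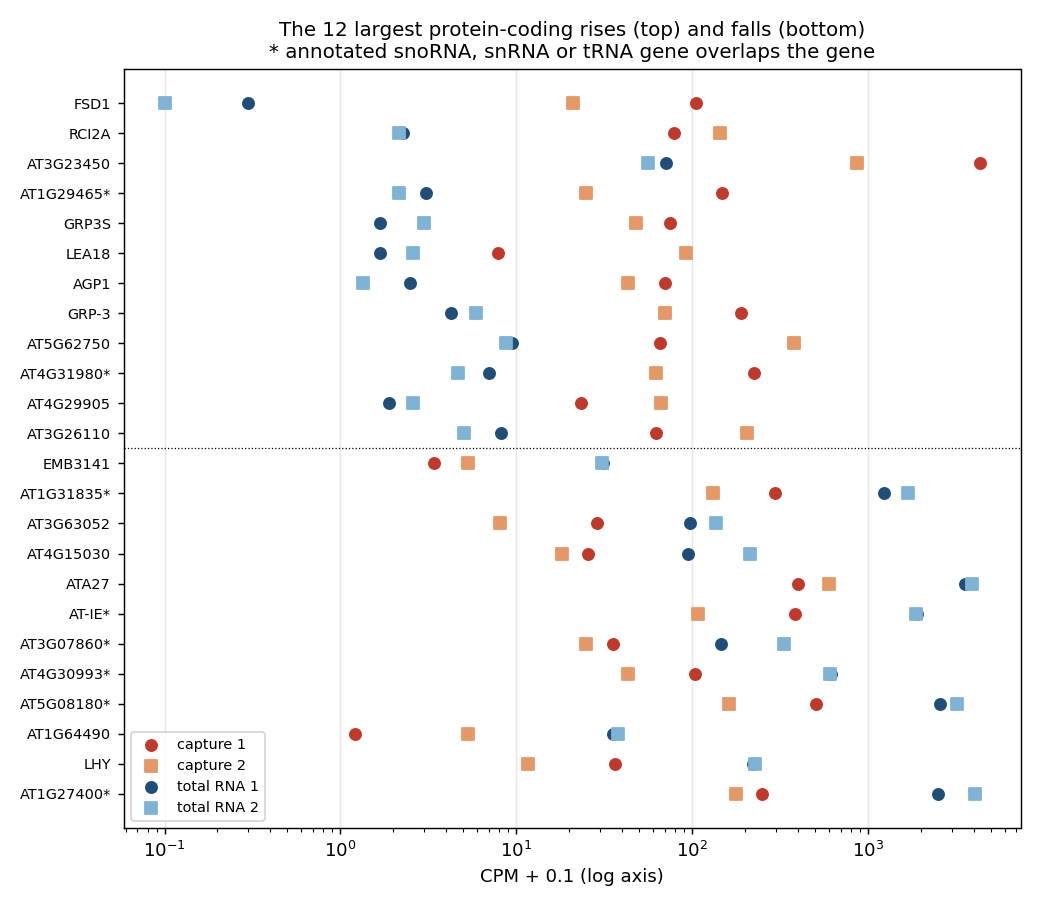
CPM plus 0.1 (log axis) in each of the 4 libraries for the 12 largest protein-coding rises, above the dotted line, and the 12 largest falls, below it, with capture in red and orange and total RNA in blue. The red and orange points lie right of the blue ones in every rise and left of them in every fall, and the starred genes, 2 rises and 6 falls, overlap an annotated snoRNA, snRNA or tRNA gene.

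Arabinogalactan proteins, heavily glycosylated proteins of the cell surface and wall, were mostly higher in capture where they could be tested. Of 30 members, 19 passed the filter, and 9 of these met it in total RNA. Of the 9, 7 were higher and 0 lower, with a median log2 fold change of 2.66, against 4.28% higher and a median of -0.07 over all genes that met the filter in total RNA. AGP15 stood at 268 and 126 CPM in capture against 17.9 and 22.8 CPM in total RNA (3.27 ± 0.45 SE, adjusted p = 0.0284). AGP40 stood at 47.7 and 59.4 CPM in capture against 8.34 and 7.86 CPM in total RNA (2.73 ± 0.288 SE). AGP41 stood at 36.6 and 36.9 CPM in capture against 6.15 and 4.96 CPM in total RNA (2.69 ± 0.315 SE). The other called members were AGP6, AGP9, AGP12 and AGP21. AGP31 and AGP23 did not pass, at 0.52 and 1.02.

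A further 7 arabinogalactan genes were called that stood under the filter in either total RNA library. AGP1 stood at 69.8 and 42.9 CPM in capture against 2.38 and 1.24 CPM in total RNA (4.78 ± 0.453 SE, adjusted p = 0.028). AGP10 had 22 and 37 counts in capture against 1 and 2 in total RNA, a ratio of 43.2 with a counting interval from 14.1 to 215. AGP14, with 11 and 13 counts in capture and none in total RNA, exceeded it by at least 17.6-fold. The summed level of the list was 1442 and 780.1 CPM in capture against 295 and 268 CPM in total RNA. AGP6 and AGP11 are known from pollen, and both were higher, with AGP6 at 82.0 and 50.6 CPM in capture against 10.9 and 5.79 CPM in total RNA.

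Nuclear genes for photosystem subunits and those for the light-harvesting antenna proteins, which pass light energy to the photosystems, were both abundant in total RNA, and all members met the filter there. Of 24 photosystem subunits 12 were higher and 1 lower, with a median of 1.47, against 4.28% higher, 3.24% lower and a median of -0.07 over all genes that met that filter. Of 20 antenna proteins 0 were called by edgeR or DESeq2 (5 at an unadjusted p under 0.05), with a median of -0.03, which was 0.24 with library totals alone, and whether the lists differ was not tested. PSBX, a small subunit of photosystem II, stood at 463 and 645 CPM in capture against 54.2 and 36.8 CPM in total RNA (3.60 ± 0.394 SE, adjusted p = 0.028). PSBW and the photosystem I subunits PSAH2 and PSAH-1 were higher by 2.76, 2.74 and 2.63. The genes PSAH2 and PSAH-1 overlap ROPGEF11 and ROPGEF13.

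The 2 genes for subunit E of photosystem I, PSAE-1 and PSAE-2, were called in opposite directions. Adjusted over the genes that met the filter in total RNA alone, the list had 9 higher and 0 lower. Neither PSAE-1 nor PSAE-2 kept its call there. PSAE-1 stood at 206 and 276 CPM in capture against 89.9 and 88.9 CPM in total RNA (1.43 ± 0.299 SE, adjusted p = 0.0407). PSAE-2 stood at 33.2 and 52.6 CPM in capture against 107 and 126 CPM in total RNA (-1.41 ± 0.322 SE, adjusted p = 0.0478). Capture lay above total RNA in both libraries for PSAE-1 and below it for PSAE-2. In the antenna list LHCA1 stood at 661 and 592 CPM in capture against 1399 and 1378 CPM in total RNA, which did not pass (adjusted p = 0.0959). Among 16 genes of carbon fixation and electron transport PETE1, a plastocyanin, was higher, at 69.8 and 75.8 CPM in capture against 26.4 and 19.0 CPM in total RNA (1.67 ± 0.285 SE).

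Histone genes, which package DNA and are mostly expressed in dividing cells, gave 5 higher and 0 lower of 15 tested, all 5 among the 13 that met the filter in total RNA. The median of those 13 was 1.13, against -0.07 and 4.28% higher over all such genes. Every tested histone gene had both capture libraries above both total RNA libraries. The same held for 5915 of the 22179 protein-coding genes with any count, tested or not. HTA2, an H2A histone, stood at 48.8 and 61.0 CPM in capture against 12.7 and 12 CPM in total RNA (2.16 ± 0.276 SE, adjusted p = 0.0284). HTA13 stood at 98.6 and 62.6 CPM in capture against 18.1 and 21.1 CPM in total RNA (2.03 ± 0.326 SE). HTB1, HTA6 and HTB4 were higher by 1.40, 1.28 and 1.25, and the calls of HTB1 and HTA6 were lost with DESeq2. Adjusted over the genes that met the filter in total RNA alone, 2 histone genes were higher. The histone sum was 1168 and 1539 CPM in capture against 737 and 654 CPM in total RNA.

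Clock genes were called in both directions, 4 higher and 4 lower of 18 tested. Among the 16 that met the filter in total RNA 2 were higher and 4 lower, with a median of -0.34, against 4.28% higher and 3.24% lower over all such genes. The lower ones were LHY and CCA1, the related transcription factors of the morning, AT3G54500 (LNK2), which works beside them, and ZTL, a light-sensing F-box protein. CCA1 stood at 41.0 and 22.5 CPM in capture against 88.9 and 87.7 CPM in total RNA (-1.53 ± 0.35 SE, adjusted p = 0.0486). The higher ones were ELF4, PCL1 (LUX) and its relative BOA, which belong to the evening side of the clock, and PRR5. ELF4 stood at 8.87 and 26.1 CPM in capture against 0.993 and 1.65 CPM in total RNA (3.90 ± 0.668 SE, adjusted p = 0.0317). PRR5 stood at 32.1 and 43.3 CPM in capture against 10.3 and 11.6 CPM in total RNA (1.81 ± 0.307 SE). None of these genes overlapped between the groups. ELF4 and BOA met the filter through capture alone. With DESeq2 3 were higher and 3 lower, without ZTL, and adjusted over the genes that met the filter in total RNA alone 1 was higher and 3 lower. The time of day of harvest is not given in the labels.

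Genes that respond to abscisic acid and cold gave 5 higher and 0 lower of 21 tested, against 6.44 and 2.84% of all genes tested. Of the 16 that met the filter in total RNA 0 were called. Of all genes that met it, 4.28% were higher, so 0 of 16 is near that share. LTI65 (RD29B) had 10 and 36 counts in capture and none in total RNA, at least 33.7-fold higher. RCI2B, with 12 and 12 counts in capture and none in total RNA, exceeded it by at least 17.6-fold. DREB1A, a transcription factor of the cold response, stood at 19.9 and 36.1 CPM in capture against 4.57 and 8.69 CPM in total RNA (2.21 ± 0.465 SE, adjusted p = 0.0413). Capture replicate 1 was the higher in 1 of the 21 genes and replicate 2 in the others. RAB18 (AT5G66400), a dehydrin, stood at 14.4 and 354 CPM in capture against 6.15 and 5.38 CPM in total RNA and did not pass (adjusted p = 0.0632). The median of the list was 1.48 without capture replicate 1 and -0.05 without replicate 2.

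The list of tapetum and pollen wall genes, which serve the maturing pollen from the anther's inner layer, gave 0 higher and 5 lower of 25, all of which met the filter in total RNA, with a median of -0.85. Of all genes that met it, 4.28% were higher and 3.24% lower. LAP6, an enzyme that makes precursors of the pollen wall, stood at 22.2 and 38.9 CPM in capture against 133 and 139 CPM in total RNA (-2.11 ± 0.344 SE, adjusted p = 0.0304). ABCG26, a transporter that exports them, stood at 9.97 and 7.22 CPM in capture against 38.1 and 38.9 CPM in total RNA (-2.22 ± 0.321 SE). ATA27, LAP5 and AMS, the last a transcription factor of the tapetum, were the others. The oleosin-like proteins of the pollen coat did not follow: GRP17 stood at 1107 and 1311 CPM in capture and 1059 and 1052 CPM in total RNA (0.20, adjusted p = 0.755). The list summed to 3769 and 6305 CPM in capture against 10663 and 10915 CPM in total RNA. Late pollen genes gave 2 higher, AGP6 and AGP11, and 0 lower of 10, against 6.44 and 2.84% of all genes tested. Both are arabinogalactan genes already counted above, and AGP11 passed the filter only through capture. Adjusted over the genes that met the filter in total RNA alone, 3 of the 25 tapetum genes were lower. In bulk tissue, fewer cells of a type in a library and less RNA per cell cannot be told apart, nor either of them from the capture itself.

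Genes of the small RNA pathway gave 0 higher and 4 lower of 25, all of which met the filter in total RNA, with a median of -0.81, against 3.24% lower over all such genes. DCL2, a Dicer that cuts double-stranded RNA, stood at 17.7 and 12.4 CPM in capture against 55.4 and 53.8 CPM in total RNA (-1.91 ± 0.299 SE, adjusted p = 0.0297). DRB4, a partner of Dicer proteins, stood at 9.97 and 12.4 CPM in capture against 34.7 and 33.1 CPM in total RNA (-1.56 ± 0.3 SE). The Argonaute gene AGO7 and SE, which acts in microRNA processing, were lower, at -1.62 and -1.29 on the log2 scale. With DESeq2 the calls of DRB4, AGO7 and SE were lost, and adjusted over the genes that met the filter in total RNA alone 2 remained called.

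Actin and tubulin genes, often used as references, gave 0 higher and 4 lower of 23, with a median of -0.32, against 3.24% lower over all genes that met the filter in total RNA. ACT8 stood at 64.3 and 52.6 CPM in capture against 261 and 246 CPM in total RNA (-2.12 ± 0.295 SE, adjusted p = 0.0284). ACT2 stood at 109 and 87.9 CPM in capture against 233 and 226 CPM in total RNA (-1.23 ± 0.288 SE), with an adjusted p of 0.05, and its call was lost with DESeq2. ACT3 and TUB6 fell by 1.49 and 1.38 on the log2 scale. Adjusted over the genes that met the filter in total RNA alone, 1 was lower.

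Ribosomal protein genes were collected by symbols that begin with RPL, RPS or RPP, which also takes in disease resistance genes such as RPP1. Of 48 tested, all of which met the filter in total RNA, 3 were higher and 1 lower, with a median of 0.33. Of all genes that met it, 4.28% were higher and 3.24% lower, with a median of -0.07, so these counts are near those shares. RPL12-A and RPL12-C, which encode proteins of the plastid ribosome, were higher by 1.54 and 1.92 on the log2 scale. RPL5B, a protein of the cytosolic ribosome, stood at 95.3 and 84.3 CPM in capture against 328 and 335 CPM in total RNA (-1.89 ± 0.293 SE, adjusted p = 0.0297). Genes with an ARF symbol gave 2 lower, the auxin response factors ARF10 and ARF18, and 1 higher of 14. All 14 met the filter in total RNA, so the same 4.28 and 3.24% stand beside them. The higher one, ARF3 (AT2G24765), is an ADP-ribosylation factor and no auxin response factor.

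Other lists had few calls or none. NAD metabolism and cap removal genes gave 0 calls of 13 with edgeR (6 at an unadjusted p under 0.05), at a median of -0.53, and 1 higher with DESeq2. The 6 auxin receptors gave 0 calls with either tool (4 at an unadjusted p under 0.05), with log2 fold changes from -1.39 to -0.45. MYB transcription factors gave 2 higher and 3 lower of 32, against 6.44% higher and 2.84% lower over all genes tested. Among them was MYB117 at 12.2 and 6.82 CPM in capture against 42.1 and 43.0 CPM in total RNA (-2.28 ± 0.356 SE). WRKY transcription factors gave 2 higher and 0 lower of 18, WRKY15 and WRKY48, beside the same shares over all genes. WRKY15 stood at 58.7 and 19.7 CPM in capture against 5.36 and 6.62 CPM in total RNA (2.64 ± 0.581 SE). WRKY48 passed the filter only through capture. Adjusted over the genes that met the filter in total RNA alone, 0 WRKY genes were called, and the median of the 14 such genes was -0.05. Among the floral organ identity genes LFY alone was called, at 46.5 and 8.43 CPM in capture against 1.59 and 0.827 CPM in total RNA (4.18 ± 0.97 SE, adjusted p = 0.0494). LFY met the filter through capture and lost its call with DESeq2 size factors, while AP3, PI and AG, which act on floral organs after it, did not pass.

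**Figure D5:**
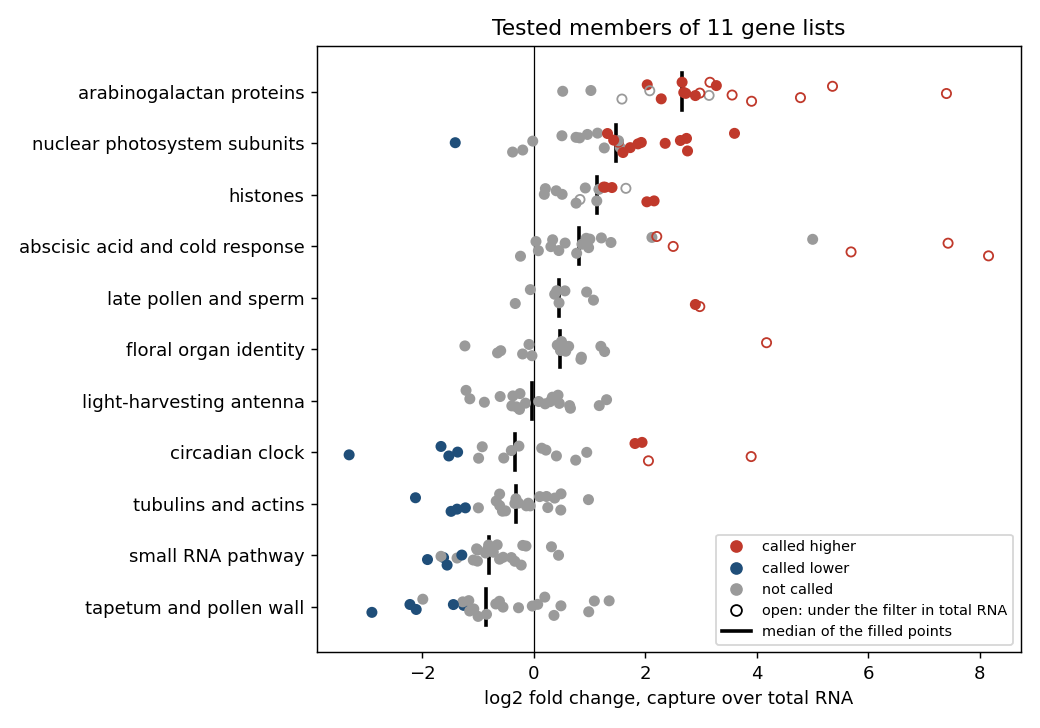
Log2 fold change of capture over total RNA for the tested members of 11 gene lists, with red for called higher, blue for called lower and grey for not called. Open points are members that met the count filter only through capture, and the bar is the median of the filled points, from 2.66 in the arabinogalactan proteins to -0.85 in the tapetum and pollen wall genes.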

How the data were processed

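Per the labels' protocols, RNA of unopened flower buds was extracted with Qiazol and a miRNeasy kit and sequenced strand-specifically on a HiSeq2000. The capture step is not described there. Per the submitters' processing notes, the tools were cutadapt, STAR 2.4.2a and HTSeq, with the TAIR10 build. No source used here says whether counting used strand. The deposited values are raw read counts of 28775 genes in each library, and 5 special entries were dropped.

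Counts were tested with edgeR 4.0.16 in R 4.3.3 (TMM factors, filterByExpr with a minimum count of 10, quasi-likelihood test, 2 residual degrees of freedom, adjusted p at most 0.05). The standard error (SE) is the fold change divided by the root of the F statistic, an approximation. Gene types and overlaps came from RefSeq TAIR10.1, which matched 28009 identifiers; organelle genes were kept as identifiers. The named genes were DXO1; among called genes above the median level whose libraries did not overlap, the 12 largest protein-coding rises and falls, 6 of nuclear noncoding and 4 each of plastid and mitochondrial genes; and up to 4 members of lowest p in each list. Other genes with values were chosen after those were seen. All members and lists were chosen with earlier results of these data known. Replicate numbers were not used to pair the libraries, and whether they do is not known. The replicate differences of capture and of total RNA had an r of 0.03. That value cannot decide it, since the total RNA libraries hardly differed (r = 0.977). On a simulated data set with known changes, the script found 1 of 49 changes of 2-fold and 22 of 48 of 4-fold. It found 46 of 48 of 8-fold and 49 of 50 of 16-fold, and made 17 false calls. The simulation gave both groups the same spread for each gene. The real capture libraries differed far more (r = 0.804) than the total RNA libraries, so these rates need not hold for the data. DESeq2 1.42.0, other scalings, other filters and left-out libraries were tried as alternatives.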

Additional observations from a re-analysis of the deposited data

How the results depend on the processing

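With 977 genes higher and 431 lower as the starting point, DESeq2 size factors gave 931 and 417, upper-quartile factors 936 and 446, no ribosomal RNA genes 907 and 440, nuclear genes other than ribosomal RNA 935 and 460, and DESeq2's own test 854 and 323 (991 genes shared). Library totals alone gave 69 and 0, and no count filter gave 1711 and 1168. The replicate number as a block gave 1512 and 780 (1405 genes shared), but whether the numbers pair the libraries is not known. Leaving out 1 library at a time gave between 1 and 4375 higher and between 0 and 4301 lower; the cause was not tested, although without a capture library the spread comes from the total RNA pair alone. Of 2 alternatives chosen after seeing the data, adjusting over genes that met the filter in total RNA alone gave 344 and 252, and leaving out protein-coding genes over small RNA genes gave 979 and 430. Of 101 called genes among the 108 named, 79 lost the call with library totals alone, 12 with DESeq2, and 101 and 76 without total RNA replicate 1 and 2. The reversed values belong to genes that were not called: LHCA4 was -0.0037 without a count filter, 0.25 and -0.22 without capture replicate 1 and 2, and -0.03 without total RNA replicate 2, against 0.09, and NADK2 was -0.89 and 0.17 without capture replicate 1 and 2, against -0.27. As a share of counts outside ribosomal RNA, protein-coding genes of total RNA held 80.4% (54.7% of all), plastid-encoded genes 12.9% in capture (8.68%) and 14% in total RNA (9.54%), and in total RNA snoRNA held 0.495% (0.337%) and tRNA 0.00300% (0.00204%). Planned comparisons of the first base of genes and of protein length were not run, since the reference used here holds no sequences. Depth limits genes of low level: 1 count is 1.11 CPM in capture replicate 1.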
